A study of Mus musculus with 4 samples.

Results

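A set of 10 transcripts that rise and fall with the activity of the ERK kinases were followed in MC38, a mouse colon adenocarcinoma cell line, with and without X-ray exposure. They are the transcription factor genes Etv1, Etv4, Etv5, Fosl1 and Egr1, the phosphatase genes Dusp4 and Dusp6, and the inhibitor genes Spry2, Spry4 and Spred1. The 10 genes were taken by symbol out of 26561 in the count table, and each had counts in every library. They were chosen by name after earlier results on this same comparison, including the low Etv4 counts in irradiated cells, were known. Their differences between irradiated and unirradiated cells are therefore given as a description, with no test.

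The study sequenced messenger RNA from cultured wild-type MC38 cells. The unirradiated group and the group given a single X-ray dose of 30 Gy hold 2 libraries each, and RNA of the irradiated cells was taken 60 h after the dose. When the unirradiated cells were harvested was not given in the sources used here, so time in culture and cell density cannot be told apart from irradiation. The labels do not name separate cultures for the libraries within a group, so their spread may be technical.

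ERK is the last kinase of a relay in which growth factor receptors load Ras with GTP, Ras recruits Raf, Raf activates MEK, and MEK activates ERK. Active ERK changes the transcription of growth genes and also of its own inhibitors. Phosphatases of the DUSP family remove the activating phosphates from ERK, while Sprouty and Spred proteins act upstream on the route from receptor to Ras and Raf. Because those inhibitors are made when ERK is active, their transcripts and those of the PEA3 group of ETS factors (Etv1, Etv4 and Etv5) are widely used as readouts of the pathway, including in tumour lines.

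Library totals ran from 26059171 to 29881492 counts, and replicate libraries differed by more than sampling noise, with a mean chi-square per gene of 3.38 in the unirradiated and 4.73 in the irradiated pair, where sampling alone gives 1. Of 9 epithelial marker genes, 8 had a row and 2 averaged 1 CPM or more (counts per 1e+06 counts of the scaled library), Cdh1 and Krt19, whereas Epcam was at 0 in 3 libraries and at 1 count in the fourth. The epithelial description of the line is therefore carried by few of its usual markers. Cdh1, which encodes E-cadherin, rose from 35.4 ± 1.24 to 70.4 ± 3.72 CPM (SD, n = 2; log2 fold change 0.99, edgeR adjusted p = 2.38e-48). Krt19 did not rise, at 1.82 CPM in unirradiated and 1.36 CPM in irradiated cells (log2 fold change -0.42, edgeR adjusted p = 0.375). Among 7 fibroblast markers 4 reached that level, and all 4 were higher after irradiation. Dcn, which encodes the matrix proteoglycan decorin, rose from 1.83 ± 0.221 to 36.2 ± 0.217 CPM (log2 fold change 4.30, edgeR adjusted p = 1.52e-182). The smaller differences were those of Col1a1 (5.21 to 8.82 CPM, edgeR adjusted p = 1.12e-04), Pdgfra (29.5 to 41.7 CPM, 4.15e-09) and Col1a2 (749 to 914 CPM, 1.21e-28). The 4 endothelial markers summed to 1.92 and 2.58 CPM without and 6.22 and 6.55 CPM with irradiation. Of 8 leukocyte markers 6 had a row, and these summed to between 0.274 and 0.364 CPM in unirradiated and between 1.77 and 1.78 CPM in irradiated libraries, and the part of such cells in the results was not tested. In bulk RNA, fewer cells that hold a transcript and less of it per cell cannot be told apart.

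In 9 of the 10 genes both irradiated libraries lay below both unirradiated ones, the exception being Dusp4. Irradiated libraries lay below in the same way for 38.7% of the 15298 genes tested. A fitted fold of at least 2 in the downward direction was found for 6 of the 10 genes (Etv4, Fosl1, Etv5, Egr1, Dusp6 and Spry4), against 4.19% of all tested genes. The median log2 fold change of the 10 genes was -1.19, or 0.437-fold, and that of all tested genes was 0.01. Nothing is read from these counts, because the genes were chosen with this comparison known. What they show is a range within the set, from 5.11-fold lower CPM in Etv4 to group means of 116.7 and 116.4 CPM in Dusp4.

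**Figure D1:**
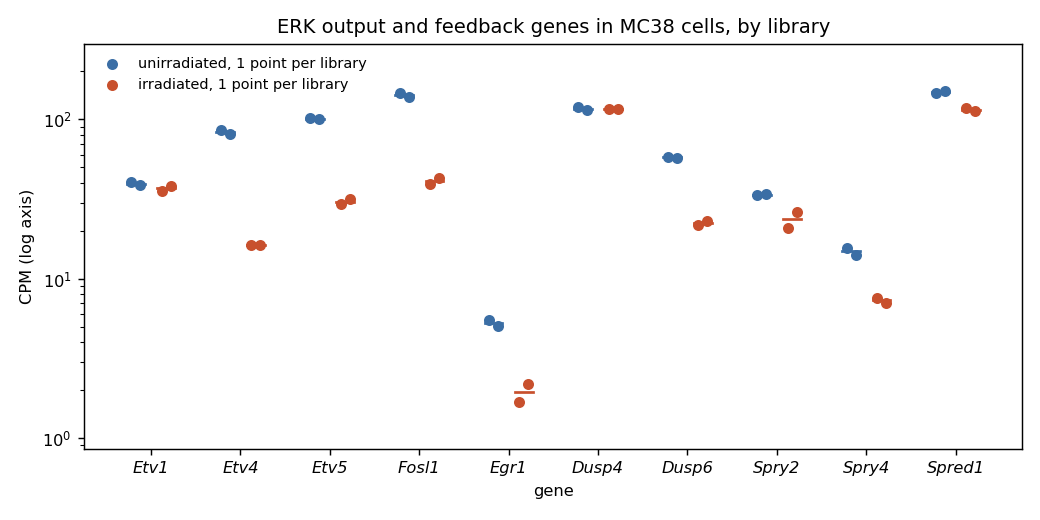
CPM of each of the 10 genes (log axis) in the 2 unirradiated (blue) and 2 irradiated (red) libraries, with 1 point per library and a line at the group mean. Levels are to be compared within a gene, since CPM does not correct for length. The pair of groups stands far apart in Etv4, Etv5, Fosl1, Egr1 and Dusp6 and coincides in Dusp4.

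Etv4 (ENSMUSG00000017724, GRCm38 chromosome 11, 101769742 to 101785371, minus strand) encodes an ETS factor of the PEA3 group that drives growth and invasion genes. It had 85.7 and 80.7 CPM without irradiation and 16.2 and 16.4 CPM with it. The groups were far apart and the irradiated pair nearly coincided. The fitted log2 fold change was -2.35 (SE 0.07), and 0.229% of all tested genes had a value as low or lower.

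Etv5 (ENSMUSG00000013089, chromosome 16, 22381309 to 22439719, minus strand), its close relative, went from 101.8 and 100.5 CPM to 29.3 and 31.6 CPM. Here too the groups did not overlap, with a log2 fold change of -1.73 (SE 0.06). Etv1 (ENSMUSG00000004151, chromosome 12, 38779380 to 38870484, plus strand), the remaining member of the trio, behaved differently. Its 4 libraries held 40.2, 38.5, 35.7 and 38.3 CPM, the first pair unirradiated and the second irradiated. The groups almost touched, and the log2 fold change of -0.09 (SE 0.08) was of the size of its error.

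Per kilobase of exon, the PEA3 trio summed to 54.4 ± 1.46 CPM per kb in unirradiated cells (SD, n = 2 in each group). In irradiated cells it summed to 15.5 ± 0.580, 3.52 times less. The length is that of all annotated exons of a gene merged, 13296 bases for Etv1, 3104 for Etv4 and 4103 for Etv5. Which transcripts are in use was not tested, so shares across genes depend on this length. The make-up of the trio shifted as well. Etv4 held 49.8% and 48.7% of the trio's CPM per kb without irradiation and 34.8% and 33.2% with it. Etv1 went from 5.45% and 5.42% to 17.8% and 18.2%, while Etv5 stayed between 44.7% and 48.6%. The larger share of Etv1 did not come with a higher level of its own, which was 2.96 CPM per kb in unirradiated and 2.78 in irradiated cells.

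Fosl1 (ENSMUSG00000024912, chromosome 19, 5447547 to 5455946, plus strand) encodes FRA-1, the AP-1 subunit whose synthesis follows sustained ERK activity. Its libraries held 147 and 138 CPM without and 39.1 and 43.1 CPM with irradiation. No overlap was seen, and the log2 fold change was -1.80 (SE 0.06). Of its exon bases, 57.2% are shared with Ccdc85b on the opposite strand, and whether the counting used strand was not given in the sources used here. Ccdc85b itself was at 65.8 and 60.4 CPM in unirradiated and 38.7 and 38.1 CPM in irradiated libraries, a smaller difference (log2 fold change -0.72, SE 0.07), and its part in the Fosl1 counts was not tested.

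Egr1 (ENSMUSG00000038418, chromosome 18, 34859823 to 34864984, plus strand), a zinc finger factor transcribed within minutes of ERK activation, was the least abundant of the set. It had 151 and 147 counts in unirradiated and 50 and 58 counts in irradiated libraries, or 5.50 and 5.04 against 1.68 and 2.19 CPM. Both irradiated libraries were well below the others. The log2 fold change of -1.45 carried the largest error of the 10 genes (SE 0.27).

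The phosphatases split. Dusp6 (ENSMUSG00000019960, chromosome 10, 99263231 to 99267489, plus strand) encodes MKP-3, a cytoplasmic phosphatase that acts on ERK and little on the related kinases. It formed separate groups of 58.1 and 57.4 CPM without irradiation and 21.7 and 23.1 CPM with it. Its log2 fold change was -1.37 (SE 0.08). Dusp4 (ENSMUSG00000031530, chromosome 8, 34807297 to 34819894, plus strand) encodes MKP-2, a nuclear phosphatase of ERK and other MAP kinases. It had 119 and 114 CPM in unirradiated and 116 and 117 CPM in irradiated libraries. The irradiated pair lay between the unirradiated pair, and the log2 fold change of 0.00 (SE 0.05) took either sign depending on the scaling of libraries.

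Among the inhibitors that act above ERK, Spry4 (ENSMUSG00000024427, chromosome 18, 38586247 to 38601415, minus strand), a Sprouty protein that blocks Ras activation, showed the largest difference. It went from 15.7 and 14.0 CPM to 7.56 and 7.04 CPM, with a log2 fold change of -1.02 (SE 0.15). Spry2 (ENSMUSG00000022114, chromosome 14, 105891947 to 105896819, minus strand), which binds adaptors of the receptor complex, held 33.7 and 33.8 CPM in unirradiated and 20.8 and 26.3 CPM in irradiated libraries. The irradiated libraries differed from each other more than in any other of the 10 genes relative to their level, apart from Egr1, although both stayed below the unirradiated pair (log2 fold change -0.52, SE 0.09). Spred1 (ENSMUSG00000027351, chromosome 2, 117121374 to 117182279, plus strand) encodes a protein that brings neurofibromin to the membrane to switch Ras off. It had 146 and 151 CPM in unirradiated and 118 and 113 CPM in irradiated libraries. The difference was modest (log2 fold change -0.37, SE 0.05).

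The order of the levels changed with irradiation, and it depends on the annotated exon lengths used. In unirradiated cells the order per kilobase of exon ran from Fosl1 at 70.2 CPM per kb (SD 3.15) through Dusp4 (42.6), Etv4 (26.8), Etv5 (24.7), Spred1 (21.9), Dusp6 (18.4) and Spry2 (16.2) to Spry4 (3.12), Etv1 (2.96) and Egr1 (1.17). Neighbours did not overlap between libraries except Spry4 and Etv1. In irradiated cells Dusp4 came first at 42.5 CPM per kb (SD 0.163), followed by Fosl1 (20.2), Spred1 (17.0) and Spry2 (11.3). Etv5 (7.42) and Dusp6 (7.16) overlapped there, ahead of Etv4 (5.25), Etv1 (2.78), Spry4 (1.54) and Egr1 (0.431). Etv4 thus moved from the third to the seventh place and Spred1 from the fifth to the third.

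Promoter sequence was available for 5 of the 10 genes in the RefSeq table used (GRCm38.p6), in 7 windows, and not for Etv4, Fosl1, Egr1, Dusp4 and Spry4. The 250 bases before the start are shown for Dusp6 and Etv5, the pair with the largest differences among those 5, and for Etv1, which differed little. Capitals mark the ETS core CGGAA and the box CCAAT, each on either strand, so that TTCCG and ATTGG are their reverse forms. The windows are chr10:99262981-99263230 on the plus strand for Dusp6, chr16:22438369-22438618 on the minus strand for Etv5 and chr12:38779832-38780081 on the plus strand for Etv1, and none of them holds an annotated exon base. Etv5 and Etv1 have 2 windows each, for different start sites, and the window shown for either gene lies inside its annotated span.
Dusp6: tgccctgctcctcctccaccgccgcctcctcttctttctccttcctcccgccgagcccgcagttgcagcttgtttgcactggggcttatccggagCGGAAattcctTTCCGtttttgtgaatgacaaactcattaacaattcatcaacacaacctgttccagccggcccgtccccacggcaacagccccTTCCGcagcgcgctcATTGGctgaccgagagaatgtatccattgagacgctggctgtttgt
Etv5: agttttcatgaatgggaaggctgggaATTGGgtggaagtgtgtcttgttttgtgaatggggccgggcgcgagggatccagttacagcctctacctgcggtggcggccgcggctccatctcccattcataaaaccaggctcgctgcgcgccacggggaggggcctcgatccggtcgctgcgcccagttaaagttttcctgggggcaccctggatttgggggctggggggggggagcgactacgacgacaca
Etv1: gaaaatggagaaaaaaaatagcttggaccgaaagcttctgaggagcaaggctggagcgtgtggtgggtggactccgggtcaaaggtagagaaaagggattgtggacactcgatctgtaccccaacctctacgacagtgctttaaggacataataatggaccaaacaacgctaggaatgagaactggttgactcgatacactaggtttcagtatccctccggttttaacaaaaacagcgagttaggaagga
The Dusp6 window holds 3 matches to CGGAA, starting 155, 144 and 61 bases before the start, and 1 to CCAAT. The Etv5 window shown holds 1 CCAAT. The other Etv5 window, at the upstream start (chr16:22439571-22439820), holds 3, and it is not shown because 149 of its bases are annotated exon. Neither motif was found in the 2 Etv1 windows. Over the 7 windows, CGGAA was present in 2, those of Dusp6 and Spred1, and it is present in 25.2% of all 32851 windows of this length in the table. CCAAT was present in 3 of 7, against 33.8% of all windows. The TATA motif TATAAA was present in 1 of 7, the Etv1 window not shown, against 12.4% of all windows. No match was found in the 7 windows to CCGGAA (12.0% of all windows), the AP-1 motif TGANTCA (6.75%), the CRE motif TGACGTCA (1.55%), the EGR motif GCGTGGGCG (0.536%) or the CArG box (1.47%), all searched on both strands. These matches describe the letters in each window and are neither binding sites nor a cause.

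The relatives of the 10 genes were tested, since they were not members of the set. Each was called from edgeR's quasi-likelihood test with Benjamini-Hochberg adjustment over all tested genes at 0.05, the rule that called 60.7% of all genes, 30.4% higher and 30.3% lower. These and the lists below were drawn up by function with an earlier report on these data known.

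Of the 8 other MAP kinase phosphatases, 4 fell, 2 rose and 2 did not pass. The ones that fell include each of the 3 other enzymes that prefer ERK as a substrate, a grouping made after the values were seen. Dusp7, a cytoplasmic ERK phosphatase, had 95.7 ± 0.0494 CPM in unirradiated and 41.1 ± 1.29 CPM in irradiated cells (SD, n = 2; log2 fold change -1.22, SE 0.06, edgeR adjusted p = 1.49e-91). Dusp5, its nuclear counterpart, fell from 15.1 ± 1.18 to 7.75 ± 1.16 CPM (log2 fold change -0.96, edgeR adjusted p = 1.95e-10), and Dusp9 from 26.7 ± 0.304 to 14.6 ± 0.549 CPM (log2 fold change -0.87, edgeR adjusted p = 3.72e-15). Dusp8, which acts on JNK and p38, fell as well (log2 fold change -0.69, edgeR adjusted p = 9.77e-12).

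The remaining 4 phosphatases rose or did not pass. Dusp10, which acts on JNK and p38, rose from 57.8 ± 1.92 to 78.0 ± 4.18 CPM (log2 fold change 0.43, edgeR adjusted p = 5.74e-13) and Dusp1, an immediate early phosphatase, rose with a log2 fold change of 0.22 (edgeR adjusted p = 5.23e-04). Dusp16 (log2 fold change -0.10, edgeR adjusted p = 0.291) and Dusp2 (-0.23, edgeR adjusted p = 0.722) did not pass. Summed per kilobase of exon, Dusp5, Dusp6, Dusp7 and Dusp9 held 62.9 ± 0.424 CPM per kb in unirradiated and 27.9 ± 0.0354 in irradiated cells (SD, n = 2). Over the 10 phosphatases together the sum went from 154 ± 0.778 to 125.8 ± 1.77 CPM per kb. Dusp4 made up 27.7% of that total on average in unirradiated and 33.8% in irradiated libraries, and Dusp6 12.0% and 5.69%.

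Both other Spred genes fell. Spred3 went from 24.5 ± 0.299 to 13.2 ± 1.39 CPM (SD, n = 2; log2 fold change -0.89, SE 0.11, edgeR adjusted p = 1.69e-14) and Spred2 from 123 ± 4.74 to 99.4 ± 0.871 CPM (-0.31, SE 0.05, edgeR adjusted p = 1.38e-09). Spry1 was close to absent, with 6 and 11 counts in unirradiated and 1 and 3 in irradiated libraries, too few to be tested. The family as a whole, 6 genes, summed to 71.9 ± 1.43 CPM per kb in unirradiated and 53.5 ± 0.856 in irradiated cells. That is a smaller difference than in the PEA3 trio (1.35 against 3.52 times).

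**Figure D2:**
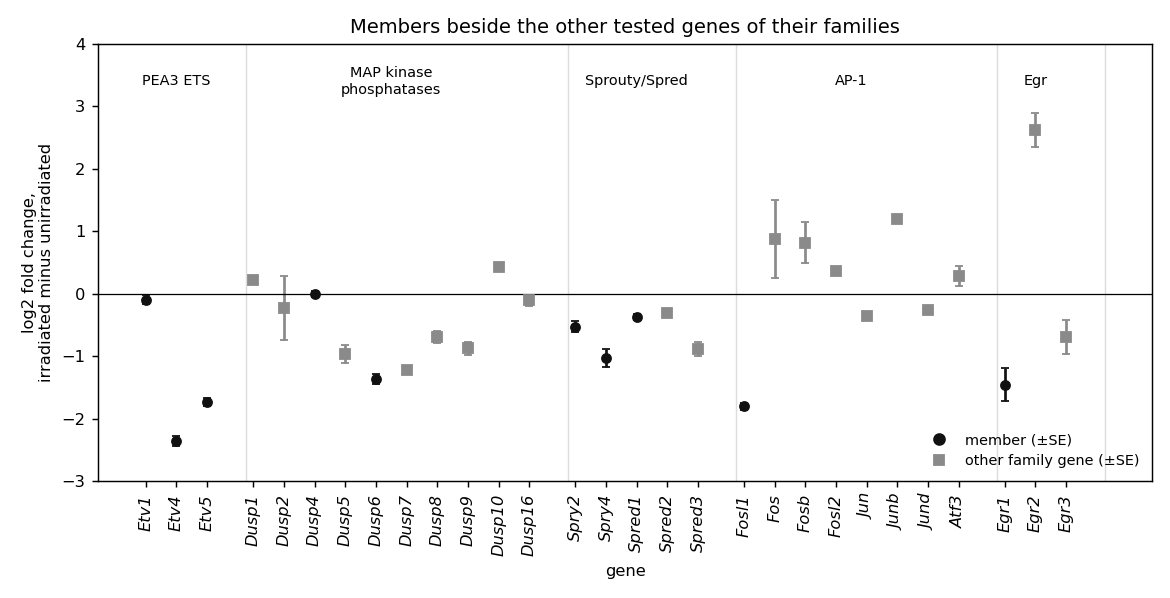
Log2 fold change (irradiated minus unirradiated, fitted over 2 libraries a group, bars ±SE) of the 10 genes (black circles) and of the other tested genes of their families (grey squares). Dusp5, Dusp7, Dusp8 and Dusp9 lie on the low side with Dusp6, Dusp4 lies at 0, and Dusp1 and Dusp10 lie above it. Egr2 and Junb lie above 0 while Egr1 and Fosl1 lie below it.

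Other AP-1 subunits went both ways. Of the 7 tested, 3 rose and 2 fell. Junb, a subunit often opposed to Jun in growth control, had 35.8 ± 2.68 CPM in unirradiated and 82.0 ± 1.01 CPM in irradiated cells (SD, n = 2; log2 fold change 1.19, SE 0.06, edgeR adjusted p = 4.02e-76). Fosl2, the nearest relative of Fosl1, rose from 115 ± 3.07 to 148 ± 8.20 CPM (0.36, edgeR adjusted p = 1.49e-14). Fosb rose from 1.64 ± 0.105 to 2.91 ± 0.361 CPM (0.82, edgeR adjusted p = 0.0224), a call lost without unirradiated replicate 1 (adjusted p = 0.0865), without irradiated replicate 2 (0.169) and with DESeq2 (0.0542).

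Jun itself fell (log2 fold change -0.35, edgeR adjusted p = 5.98e-25), as did Jund (-0.25, edgeR adjusted p = 6.29e-07). Fos had 15, 11, 11 and 36 counts and Atf3 a log2 fold change of 0.29, and neither passed (edgeR adjusted p = 0.216 and 0.117). Among the 4 Fos genes, Fosl1 held 85.2% and 84.9% of the CPM per kb without irradiation and 55.8% and 55.5% with it. The share of Fosl2 went from 14.3% and 14.6% to 42.6% and 41.6%. The sum over the Fos genes was 82.5 ± 3.50 CPM per kb in unirradiated and 36.3 ± 2.57 in irradiated cells. The Jun genes summed to 203.8 ± 4.31 and 187.3 ± 5.51 (SD, n = 2).

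Within the Egr genes the direction also differed. Egr2, an immediate early factor like Egr1, rose from 34 and 31 counts to 203 and 197 counts (log2 fold change 2.63, SE 0.27, edgeR adjusted p = 2.51e-21). Egr1 held 47.0% and 49.0% of the family's CPM per kb in unirradiated and 12.6% and 13.7% in irradiated libraries, where Egr2 held 67.3% and 61.6%. Egr3, named after its value was seen, stood at 119 and 110 counts in unirradiated against 56 and 84 in irradiated libraries, and fell in the same direction as Egr1 (log2 fold change -0.69, SE 0.27, edgeR adjusted p = 0.021). That call was lost with DESeq2 (adjusted p = 0.0696), without unirradiated replicate 1 (0.113) and without irradiated replicate 1 (0.363). All 4 Egr genes together were low, at 2.45 ± 0.223 CPM per kb in unirradiated and 3.26 ± 0.401 in irradiated cells (SD, n = 2).

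**Figure D3:**
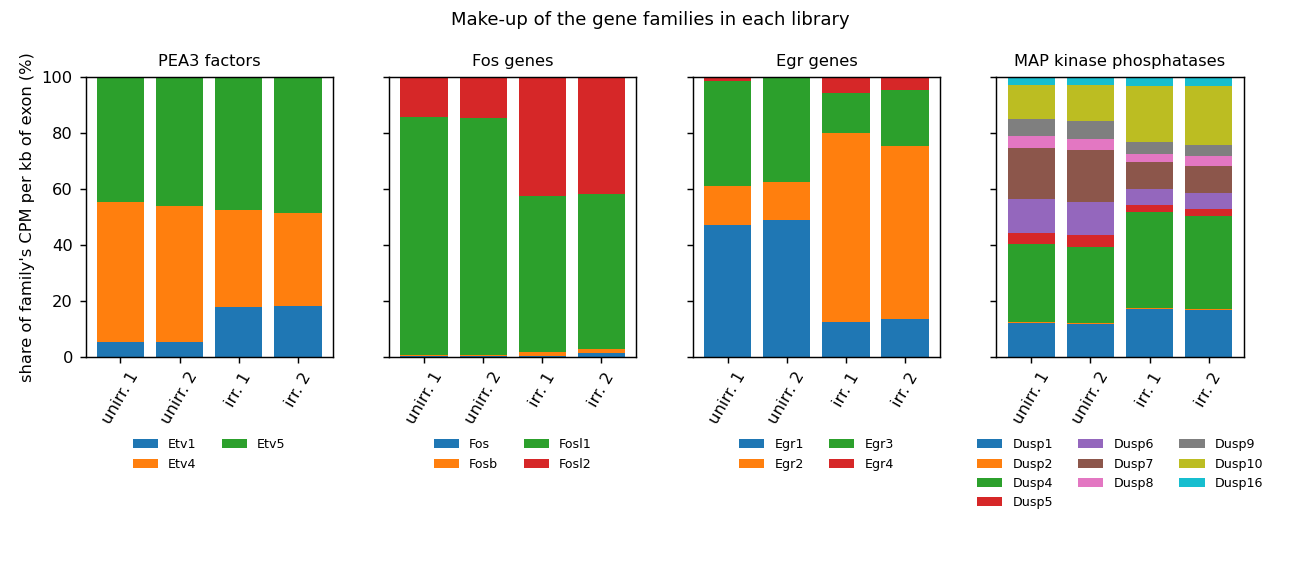
Share of each gene in the CPM per kb of exon summed over its family, in percent, in each of the 4 libraries (unirr., unirradiated and irr., irradiated). Replicates agree closely for most genes. The irradiated pair differs more in Egr2 (67.3% and 61.6%), Egr3 (14.33% and 20.25%) and Fos (0.46% and 1.51%). Between the groups the shares of Etv4, Fosl1 and Egr1 are smaller after irradiation and those of Etv1, Fosl2 and Egr2 larger.

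The relay above the 10 genes shifted little in size. In the list of Ras, Raf, MEK and ERK genes, 9 of 10 fell and none rose, at a median of -0.23 on the log2 scale, or 0.852-fold. Hras fell from 29.1 ± 0.554 to 21.8 ± 0.635 CPM (SD, n = 2; log2 fold change -0.41, SE 0.10, edgeR adjusted p = 4.83e-05). Nras (-0.26) and Braf (-0.23) fell as well (edgeR adjusted p = 1.26e-09 and 5.52e-04). Map2k2 (-0.17) and Map2k1 (-0.15) passed with small differences (edgeR adjusted p = 2.40e-03 and 8.87e-03). Mapk3, which encodes ERK1, passed narrowly (-0.10, edgeR adjusted p = 0.0416), and Araf did not pass (0.04, edgeR adjusted p = 0.527). With library totals in place of TMM factors (trimmed mean of M-values, which correct for composition) 6 of the 10 fell, since Map2k1, Map2k2 and Mapk3 no longer passed, and 6 also fell without irradiated replicate 1. Mapk3 also lost its call with RLE scaling (edgeR adjusted p = 0.0567) and with a minimum mean of 1 CPM (0.19). It lost the call with any 1 library left out as well, at log2 fold changes from -0.1175 to -0.1034.

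At the receptor end the picture was different. Fgfr1, a receptor for fibroblast growth factors that signals through this relay, rose from 244 ± 8.72 to 603 ± 3.70 CPM (SD, n = 2; log2 fold change 1.31, SE 0.03, edgeR adjusted p below 1e-300). Fgf1, one of its ligands, rose from 5 and 6 counts to 82 and 102 counts (log2 fold change 4.05, SE 0.49, edgeR adjusted p = 9.71e-16). Of 7 tested ligand and receptor genes 3 rose and none fell. Met, the receptor of hepatocyte growth factor, had a log2 fold change of -0.02 (edgeR adjusted p = 0.777, not past the threshold), and it was named after its value was seen.

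Adaptors, exchange factors and scaffolds rose in 5 of 14 tested genes and fell in 2. The genes that fell are Sos1 and Sos2, the exchange factors that load Ras (log2 fold changes -0.36 and -0.32, edgeR adjusted p = 7.12e-12 and 4.70e-05). Shc1, an adaptor at activated receptors, rose from 171 ± 2.68 to 279 ± 5.99 CPM (SD, n = 2; 0.71, edgeR adjusted p = 4.42e-79), and the docking protein gene Gab1 rose with 0.35 (edgeR adjusted p = 5.40e-04). Other brakes on receptors and Ras were divided, with 6 of 16 higher and 7 lower. Errfi1, an ERK-induced inhibitor of the EGF receptor, fell (-0.71, edgeR adjusted p = 1.26e-27), as did the ubiquitin ligase gene Cbl (-0.69, edgeR adjusted p = 3.33e-41). Il17rd, which encodes the FGF antagonist SEF, rose from 3.63 ± 0.629 to 7.87 ± 0.0591 CPM (1.12, edgeR adjusted p = 2.21e-07), and Lrig1 rose with 0.48 (edgeR adjusted p = 8.34e-07).

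Kinases that ERK activates fell in 4 of 8 genes and rose in 2. Mknk2, which phosphorylates the cap-binding protein eIF4E, rose from 84.0 ± 1.29 to 226.7 ± 10.4 CPM (SD, n = 2; log2 fold change 1.43, SE 0.04, edgeR adjusted p = 3.69e-229). Rps6ka4, which encodes the nuclear kinase MSK2, fell (-0.78, edgeR adjusted p = 4.48e-50), and so did the ribosomal S6 kinase gene Rps6ka2 (-0.59, edgeR adjusted p = 1.90e-15). Rps6ka5, which encodes MSK1, rose (0.46, edgeR adjusted p = 4.95e-03), a call lost without unirradiated replicate 1 (adjusted p = 0.148). ETS factors outside the PEA3 group rose in 7 of 12 tested genes and fell in 3, with Elf1 (0.52) and Elf4 (0.47) highest and Gabpa (-0.38) and Elk3 (-0.37) lowest among those called, edgeR adjusted p between 1.13e-23 and 1.09e-13. The lowest of the 12 was Fli1 at -0.66 (edgeR adjusted p = 0.0923), above the fitted values of Etv4 and Etv5, and it was named after its value was seen. Without irradiated replicate 1 it passed the threshold (log2 fold change -1.23, edgeR adjusted p = 0.0203).

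Further transcripts that respond to ERK were low more often than high. In the list of other readouts 9 of 15 tested genes fell, 2 rose and 4 did not pass, at a median of -0.59 on the log2 scale, or 0.664-fold. Epha2, an ephrin receptor gene, fell from 319 ± 4.70 to 82.5 ± 3.62 CPM (SD, n = 2; -1.95, SE 0.04, edgeR adjusted p below 1e-300), and Plaur, the urokinase receptor, from 63.6 ± 0.947 to 24.6 ± 0.216 CPM (-1.37, SE 0.07, edgeR adjusted p = 1.52e-72). Ccnd1, which encodes cyclin D1, fell with -1.27 (edgeR adjusted p below 1e-300) and Myc with -0.59 (edgeR adjusted p = 4.50e-34). Both are among the 9 that fell, and both were named after their values were seen. Tgfa, a ligand of the EGF receptor, rose from 8 and 24 counts to 53 and 43 (1.59, edgeR adjusted p = 2.99e-03), a call lost without unirradiated replicate 1 (adjusted p = 0.0848) and without irradiated replicate 1 (0.0547). Plau, the urokinase gene, rose with 1.17 (edgeR adjusted p = 8.91e-04).

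The other immediate early genes fell in 10 of 14 and rose in 4, with a median log2 fold change of -0.50. Nr4a3 and Nr4a1, orphan nuclear receptors, fell from 2.05 ± 0.237 to 0.681 ± 0.156 CPM (-1.59, edgeR adjusted p = 9.50e-04) and from 15.8 ± 1.42 to 7.12 ± 0.0489 CPM (-1.15, edgeR adjusted p = 3.18e-14; SD, n = 2). Besides Egr2, Btg2, an antiproliferative gene, rose from 1.83 ± 0.403 to 3.58 ± 0.213 CPM (0.97, edgeR adjusted p = 2.69e-03), a call lost without unirradiated replicate 2 (adjusted p = 0.0555). Over the 113 tested genes of the 11 lists, 34 rose and 52 fell, with a median log2 fold change of -0.11. The same rule called 30.4% of all tested genes higher and 30.3% lower. The exons of Araf, Dusp1, Elf1, Elk3, Gabpa, Jun, Junb, Lrig1 and Spred3 overlap a gene with over 10% as many counts, so their own levels are less certain where strand was not used.

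**Figure D4:**
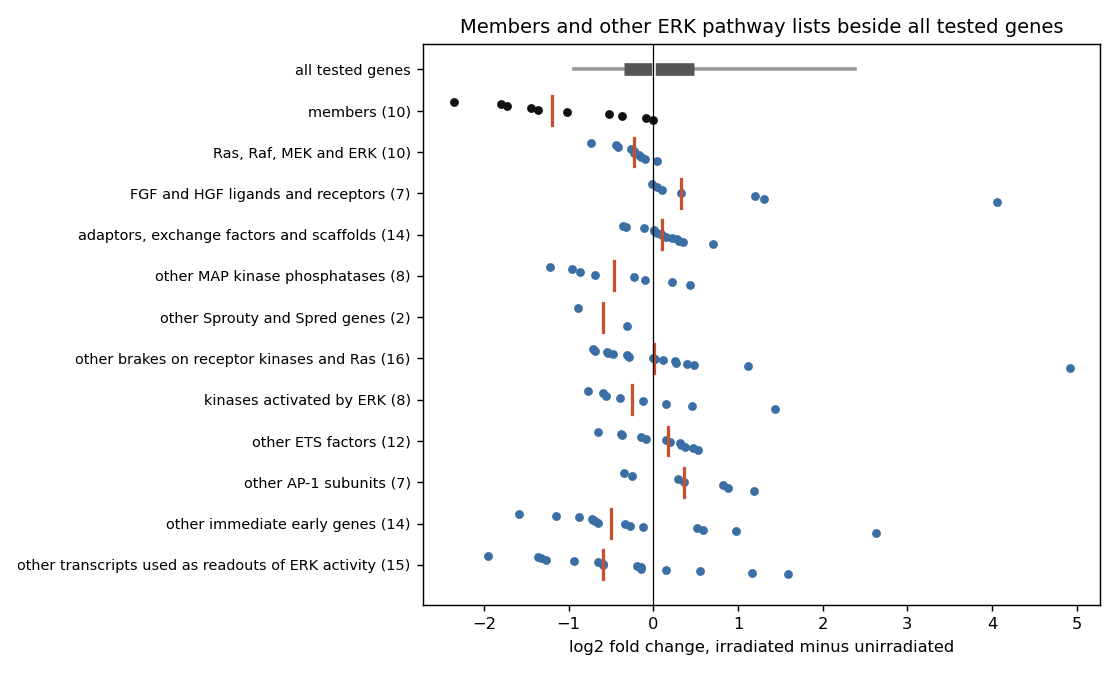
Log2 fold change (irradiated minus unirradiated) of each tested gene, 1 point per gene, in the set of 10 (black) and in 11 lists of other ERK pathway genes (blue), with the list's median in red and the number tested in brackets. The grey bars at the top span the 5th to 95th percentile (thin) and the quartiles (thick) of all 15298 tested genes. The median of the 10 genes lies at -1.19 and the medians of the other lists between -0.60 and 0.36.

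Outside these lists, the 5 genes most like Etv4 across the 4 libraries were Hmga1, Nppb, Dkk2, H1f0 and Qrfp. Likeness was the Euclidean distance between log2(CPM + 1) values centred on each gene's mean, among tested genes with a mean of at least 5 CPM. Hmga1, a chromatin architectural protein, was nearest with a distance of 0.19, at 1485 and 1455 CPM in unirradiated and 333 and 350 CPM in irradiated libraries. The distances of the other 4 ran to 0.28 for Qrfp. Within the set, Fosl1 (0.52) and Etv5 (0.59) were nearest to Etv4 and Dusp4 (2.28) was farthest.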

How the data were processed

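Counts per Ensembl gene were deposited by the authors as whole numbers, 1 column per library, neither normalized nor pooled. Per the submitters' processing notes, DESeq2, HTSeq, HISAT and HISAT2 were used with build mm10. The annotation release and strand setting were not given in the sources used here. RNA was extracted with Trizol, per the labels' protocols. Groups and replicate numbers follow the sample titles, also for unirradiated replicate 2, whose description bears a conflicting number.

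Symbols, coordinates and exon lengths come from GENCODE M21 (GRCm38), which gave 26372 of 26561 rows a symbol. Exon length is that of all annotated exons of a gene merged. Spry3, Fgf9 and Etv2 could not be matched to a row and were not analysed here. Differences were tested with edgeR 4.0.16 in R 4.3.3 (TMM, filterByExpr, robust glmQLFit, glmQLFTest with irradiation as the sole term), adjusted over 15298 genes, with 11263 left out. CPM use the TMM-scaled library size. SE of a log2 fold change is its size over the square root of F. The median prior degrees of freedom was infinite, so the spread of many genes comes from the fitted trend. On simulated data with 50 planted genes a fold, the test recovered 11 genes changed 1.2-fold, 42 changed 1.5-fold, 49 changed 2-fold and 50 changed 4-fold, with 3 false calls among 15298 genes.

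The members and lists were chosen with earlier results of these data known. Named beside the members are all genes of 4 lists (Ras to ERK, phosphatases, Sprouty and Spred, AP-1), of each other list the 2 called genes with the largest rise and the 2 with the largest fall at a mean of at least 1 CPM, and 5 genes most like Etv4. Some genes of the first list are not reported here. Where symbols such as Gm or Rik names occur they were left out of the last group. Alternatives were other scaling, other filters, DESeq2 1.42.0, non-robust estimation, a replicate block and each library left out.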

Additional observations from a re-analysis of the deposited data

How the results depend on the processing

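Under 11 alternatives the median log2 fold change of the 10 genes stayed between -1.25 and -1.14, and 9 of the 10 kept a negative value in each. Dusp4 changed sign, to 0.0023 with RLE scaling, 0.0551 with library totals, and 0.0296 with a minimum mean of 1 CPM, and ranged from -0.0441 to 0.0120 with 1 library left out. Spry2 ranged from -0.70 to -0.36. Of 68 genes outside the set, selected by the naming rule or named after their values were seen, 59 kept their call under each alternative that gave a value. Of 747 values 22 lost the call, 1 gained it (Fli1 without irradiated replicate 1) and none changed direction. The 34 higher and 52 lower pathway genes became 36 and 47 with library totals, 35 and 51 with DESeq2, and 32 to 35 and 47 to 52 with 1 library left out. With the replicate block, where numbers share only a label (correlation of replicate deviations between the groups -0.01), 34 rose and 51 fell, the 10 genes had a median of -1.19, and Mapk3 lost its call (adjusted p = 0.0573). The cause of these shifts was not tested. With 2 libraries a group the self-test recovered 11 of 50 changes of 1.2-fold, so differences of that size in the tested genes may go uncalled. Folds below 1.2 were not simulated. Fos and Spry1 are limited by low counts. When 1 library is left out, the lone sample is assumed to vary like the other group.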

Other observations

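Among the ERK pathway lists, 15 genes with a row were too low for the filter and have no test. Several of them, named after their values were seen, had counts mainly in irradiated libraries. Ksr2, a scaffold of Raf and MEK, had 0 and 0 counts without irradiation and 13 and 9 with it. Fgfr2, a receptor for fibroblast growth factors, had 0 and 0 against 5 and 7 counts, although its exons overlap Ctbp2 on the same strand. Erg, an ETS factor, had 0 and 0 against 7 and 7. Hgf, the ligand of Met, had 1 and 1 against 9 and 6, and Fgf10 had 0 and 1 against 4 and 15. Spry1 ran the other way, with 6 and 11 against 1 and 3. Areg, an EGF receptor ligand, had 4 and 9 against 6 and 6 counts. The number of genes with a count above 0 was 19413 and 19531 in the unirradiated and 22713 and 22663 in the irradiated libraries, and its part in these low counts was not tested.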
